A study of Mus musculus with 15 samples.

Results

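Small stretches of open chromatin that lay inside closed chromatin, and that were called open in each of 3 genome maps of mouse hepatocytes, were described. The maps come from srHC-seq, which sonicates fixed chromatin and sorts the DNA by fragment size on beads. Chromatin that resists sonication is read as closed. The genome covered by the maps was divided into the classes het (closed), int (intermediate) and euch (open), apart from 2 bases in no list of the knockout map. An island was a run of 2 kb bins on an autosome that was euch in all 3 maps and was 2 to 20 kb long. In each map at least 60% of the 100 kb on its left, and of the 100 kb on its right, also had to be het. Of 29554 autosomal runs that were open in all 3 maps, 20530 were 2 to 20 kb long, and 680 of these were islands, which is 3.31% of the short runs. The islands were therefore chosen by the class calls themselves. Their being open, their short length and their closed sides are properties of the choice and not results.

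The maps stood for 15 samples, 5 in each of 3 groups, and each map was read as a pool of its group. The first group were mice at postnatal day 14 (P14) of the genotype Alb-Cre;Ezh1-/-;Ezh2f/f (2 males and 3 females), called P14 knockout here. Ezh1 is deleted in the whole animal in these mice, and the Cre recombinase that removes the floxed Ezh2 is driven by the albumin promoter, which is active in hepatocytes. The second group were wild-type mice aged 2 months, of which 2 were male and 3 female. The third were wild-type mice at P14, of which 3 were male and 2 female. The labels do not say whether these carry Cre or floxed alleles. All cells were hepatocytes obtained by perfusing and digesting the liver. Their identity could not be checked against marker genes, because no gene positions on the mm9 build of the maps were at hand. For the same reason islands are given by position, with no gene and no DNA sequence. Each group had a single map without read counts, so the depth is unknown and no difference between maps could be set against the spread between animals. All comparisons below are descriptions without a test.

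Heterochromatin is compact, poor in active genes and hard for enzymes and sonication to break up, while euchromatin is looser and holds most active genes. PRC2 is a repressor complex that places methyl groups on histone H3 at developmental genes, and EZH1 or EZH2 serves as its enzyme. In the liver, PRC2 is known to hold back genes of later hepatocyte maturation and of other cell fates. Open sites inside closed chromatin are in general places such as a lone active promoter, an enhancer or a site bound by a structural protein. Which of these the islands hold was not analysed here.

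The islands were mostly a few bins long. They covered 4.72 Mb in all, or 0.191% of the autosomes and 0.633% of the bases open in all 3 maps. Their median length was 6 kb, with quartiles of 4 and 8 kb. There were 71 islands of a single bin of 2 kb, 202 of 4 kb, 158 of 6 kb and 89 of 8 kb, and 12 reached the upper limit of 20 kb. Islands longer than 10 kb numbered 107, which is 15.7%, against 31.3% of the 19850 short constant open runs in other surroundings. The median length of those other runs was 8 kb.

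The choice put many islands close to its own limit. The lowest het share among the 6 sides of an island (left and right in 3 maps) had a median of 68%, and in the other short runs it had a median of 6%. Just inside the limit, 80 islands had a lowest side of exactly 60% het. Just outside it, 100 runs had a lowest side of 58% and were left out. The longest island at the limit spanned chr6:55290001-55310000, and the longest run just below it spanned chr3:66154001-66174000, both 20 kb long. At the closed end, 124 islands had at least 80% het on every side and 30 had at least 90%.

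The most enclosed island was 4 kb long, at chr12:29974001-29978000. It was the same 4 kb domain in the P14 knockout, at 2 months and in the P14 wild type, and both sides were 100% het in each of the 3 maps. Next came islands of 8 kb at chr12:22044001-22052000 and chr12:24894001-24902000, where the lowest side was 98% het. In both, the open domain was 10 kb long in the P14 knockout, 8 kb at 2 months and 8 kb in the P14 wild type. An island of 4 kb at chr8:19160001-19164000 also had a lowest side of 98%, with a domain of 4 kb in the knockout, 4 kb at 2 months and 6 kb in the P14 wild type. The fifth was longer, 16 kb at chr8:112740001-112756000, with a lowest side of 94%. Its domain measured 18 kb in the knockout, 16 kb at 2 months and 20 kb in the P14 wild type. Thus 3 of the 5 most enclosed islands lay on the first 30 Mb of chromosome 12. None of the 5 domains differed by more than 4 kb between maps. Sides this closed leave little room for a longer domain, so this small spread is bound by how the 5 were picked.

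Among the 12 islands of 20 kb, the one with the most closed sides was at chr12:117284001-117304000. Its domain was 24 kb long in the P14 knockout, 22 kb at 2 months and 24 kb in the P14 wild type, and its lowest side was 80% het. It also lay 35198 kb from the nearest open domain of at least 200 kb of the P14 wild-type map, the largest such distance among the 680 islands. The island at chr13:69392001-69412000 had domains of 20, 22 and 22 kb in the same order of maps. At chr2:179008001-179028000 the domain was 22 kb in the knockout, 46 kb at 2 months and 24 kb in the P14 wild type. At chr7:58106001-58126000 it was 22 kb in the knockout, 22 kb at 2 months and 36 kb in the P14 wild type. At chr2:148688001-148708000 it was 54 kb in the knockout and 20 kb at 2 months, against 44 kb in the P14 wild type. Over all 12 the domain ranged from 20 to 54 kb in the knockout, from 20 to 46 kb at 2 months and from 20 to 44 kb in the P14 wild type, so a fixed core of 20 kb stood in domains of different extent.

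Closed chromatin began within a few kb of the islands. In the ring 10 to 20 kb beyond the island, 80.8% of bins were het in the P14 knockout, 82.4% at 2 months and 83.2% in the P14 wild type. Between 50 and 100 kb away the het share was 85.9% in the knockout, 88.5% at 2 months and 85.4% in the P14 wild type. These rings were used to choose the islands. In all 3 maps 69.2% of the side bins were het, against 17.9% beside the other short runs and 31.5% of all autosomal bins. In single maps 82.4% of the side bins were het in the knockout, 84.7% at 2 months and 82.7% in the P14 wild type. The choice asked for closed sides in each map, so a high share closed in all 3 is bound by it. The nearest run of bins closed in all 3 maps had a median length of 20 kb, counting left and right together. In 198 islands, or 29.1%, it was at least 20 kb long on both sides.

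**Figure D1:**
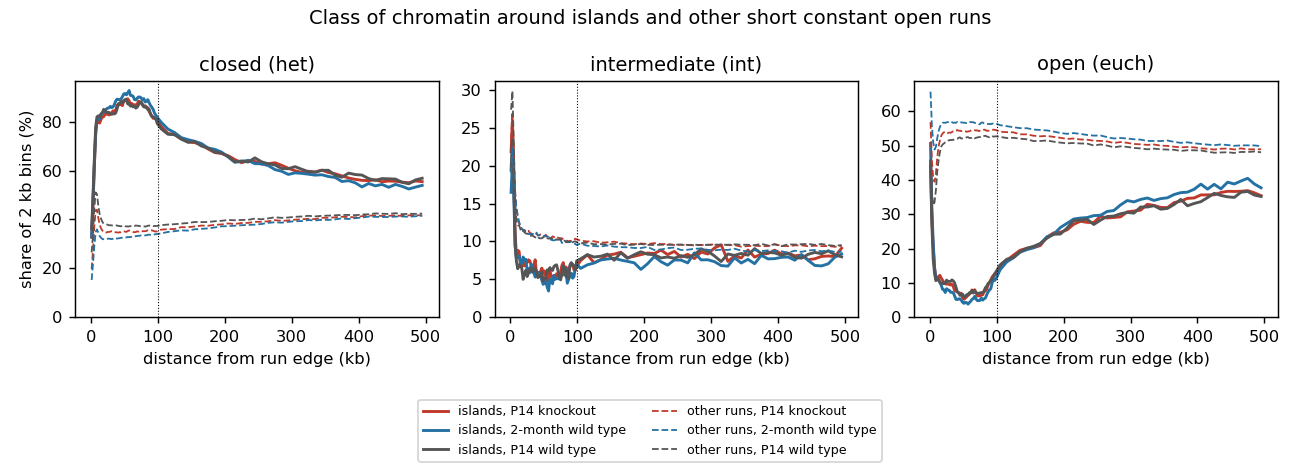
Share of 2 kb bins called closed (het), intermediate (int) and open (euch), in percent, against the distance in kb from the edge of the run, for 680 islands (solid) and 19850 other short constant open runs (dashed) in the P14 knockout (red), 2-month wild-type (blue) and P14 wild-type (grey) maps. The dotted line marks 100 kb, the width of the sides used to choose the islands. Around islands the closed share is highest between 50 and 100 kb and is lower beyond it in all 3 maps.

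Beyond the chosen 100 kb, where the choice set no limit, the surroundings of islands stayed more closed than the autosomes as a whole. At 100 to 200 kb the het share was 71.8% in the P14 knockout, 72.7% at 2 months and 71.7% in the P14 wild type. At 200 to 500 kb it was 59.2%, 57.8% and 59.6% in the same order, and at 500 to 1000 kb it was 51.3%, 49.3% and 52.6%. Around the other short runs it was 42.9% in the knockout, 42.8% at 2 months and 43.4% in the P14 wild type at 500 to 1000 kb. The het share of all autosomal bases was 46.0%, 46.2% and 45.4%. The islands thus stood in closed territory wider than the sides that chose them, and the 3 maps differed from each other by less than 4 percentage points in each of these rings. A long closed domain that fills a side can run on past 100 kb, so these rings are not fully independent of the choice.

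The sides differed between maps more in the number of other open domains than in their het share. Only domains lying wholly within the sides were counted, so one that crossed the outer end of a side was left out. An island had on average 1.57 such domains in the P14 knockout, 0.991 at 2 months and 1.63 in the P14 wild type. Islands with no other open domain wholly within their sides numbered 131 in the knockout (19.3%), 266 at 2 months (39.1%) and 126 in the P14 wild type (18.5%). Sides that were at least 90% het numbered 457 of 1360 in the knockout, 590 at 2 months and 485 in the P14 wild type. At 2 months more islands therefore lacked another whole open domain within their sides. Domains that only partly entered the sides were not counted in any map. The autosomes as a whole also held 36222 open domains in the knockout and 25999 at 2 months, against 40522 in the P14 wild type. Whether islands differ from the rest of the genome in this was not tested.

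Most borders of the domains that held islands went straight to closed chromatin. Of 1360 borders, 875 (64.3%) met het without an intermediate stretch in the P14 knockout, 931 (68.5%) at 2 months and 923 (67.9%) in the P14 wild type. The remaining borders passed through an int stretch with a median length of 4 kb in all 3 maps. After that stretch the next class was het in 90.7% of cases in the knockout, 92.3% at 2 months and 91.3% in the P14 wild type. Around the other short runs, 48.5% of borders in the knockout, 42.9% at 2 months and 51.1% in the P14 wild type went straight to het. The choice of closed sides bears on this contrast too, and it was not tested apart from it.

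The open domain around an island was usually wider than the constant core. The core is the stretch open in all 3 maps, so by definition no domain could be shorter than it. Its median length was 10 kb in each of the 3 maps, against a median core of 6 kb. The mean was 12.2 kb in the P14 knockout, 13.3 kb at 2 months and 11.8 kb in the P14 wild type. The longest was 54 kb in the knockout, 54 kb at 2 months and 44 kb in the P14 wild type. Domains over 20 kb held 79 islands in the knockout (11.6%), 108 at 2 months (15.9%) and 76 in the P14 wild type (11.2%). Among the other short runs these shares were 43.8%, 54.5% and 35.0% in the same order. The domain was exactly the core for 210 islands in the knockout (30.9%), 172 at 2 months (25.3%) and 208 in the P14 wild type (30.6%). Among the other short runs it was exactly the run in 18.9%, 14.8% and 31.5%, so the P14 wild-type shares were close. The closed sides limit domain length, so the choice bears on these contrasts, which were not tested apart from it.

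**Figure D2:**
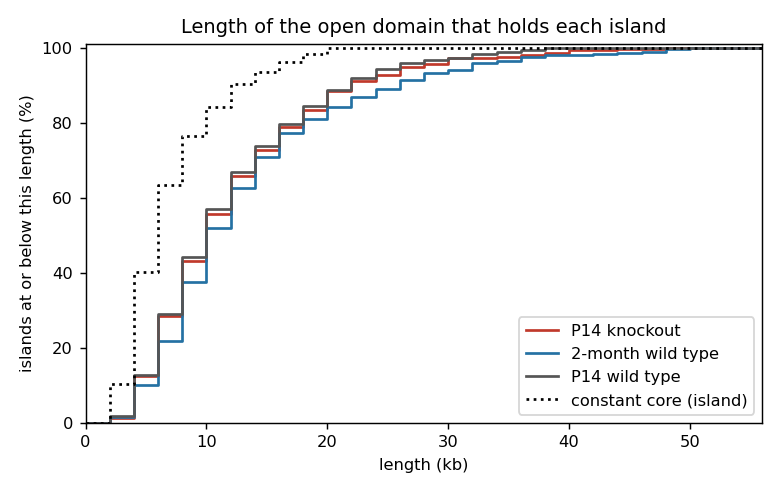
Cumulative share of the 680 islands, in percent, by the length in kb of the open domain that holds them in the P14 knockout (red), 2-month wild-type (blue) and P14 wild-type (grey) maps, and of the constant core itself (dotted black). The curve of the knockout (mean 12.2 kb) lies close to that of the P14 wild type (mean 11.8 kb), and the 2-month curve (mean 13.3 kb) lies to their right.

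Edges were seldom fixed. Both edges lay at the same bin in all 3 maps in 21 islands (3.09%), against 0.514% of the other short runs. The closed sides limit how far a domain can reach past the core, so the choice bears on this contrast, which was not tested apart from it. One edge was shared in 171 islands (25.1%), and no edge was shared by all 3 maps in 488 (71.8%). The longest island with both edges fixed was 16 kb long at chr8:110416001-110432000, followed by 14 kb at chr1:146038001-146052000 and 10 kb at chr11:54070001-54080000. The length of the domain differed by at most 4 kb over the 3 maps in 230 islands (33.8%), with a median spread of 8 kb and a largest spread of 44 kb. The domain was longest in the knockout alone in 155 islands, in the 2-month map alone in 221 and in the P14 wild type alone in 164. The spread and these counts were taken for islands only, so they do not show a trait particular to islands. Of all short constant open runs, 62.3% lay in a longer domain at 2 months than in the P14 wild type.

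The knockout was set against the wild type at P14 to ask how the extent of such open sites differs when hepatocytes lack both PRC2 enzymes. Domains around islands were longer in the P14 knockout in 269 islands (39.6%), equal in 127 (18.7%) and shorter in 284 (41.8%). Over all 20530 short constant open runs, 52.3% lay in a longer domain in the knockout and 39.1% in a shorter one. The mean difference, knockout minus wild type, was 0.388 kb over the islands (SD over islands 8.12 kb) and the median was 0 kb. A domain longer by at least 10 kb was found at 78 islands (11.5%, against 32.5% of all short runs), and one shorter by at least 10 kb at 64 (9.41%, against 22.8%). Which of longer and shorter was more frequent turned with the choice of sides: with sides of 200 kb, 43.7% of islands had a longer domain in the knockout and 40.2% a shorter one. By length of the core, the mean difference was 0.476 kb over 273 islands of 2 to 4 kb, -0.259 kb over 247 of 6 to 8 kb, 0.741 kb over 116 of 10 to 14 kb and 2.55 kb over 44 of 16 to 20 kb.

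Single islands had far wider domains in the knockout. At chr13:72740001-72742000 a core of 2 kb lay in a domain of 44 kb in the P14 knockout and of 2 kb at 2 months, against 4 kb in the P14 wild type. The 44 kb domain also took in the island at chr13:72760001-72766000. At chr2:174556001-174562000 the domain was 40 kb in the knockout and 8 kb at 2 months, against 6 kb in the P14 wild type. At chr11:68230001-68232000 it was 36 kb in the knockout and 6 kb at 2 months, against 2 kb in the P14 wild type. In these 3 islands the 2-month domain was within 4 kb of that of the P14 wild type. The domain at chr1:90638001-90648000 was 40 kb in the knockout, against 10 kb in the P14 wild type, and that at chr3:134298001-134304000 was 40 kb, against 12 kb. At the other end, the domain at chr17:22712001-22714000 was 8 kb in the knockout, against 34 kb in the P14 wild type. At chr13:72448001-72458000 it was 10 kb in the knockout, against 36 kb in the P14 wild type. At chr7:50816001-50818000 it was 2 kb in the knockout and 28 kb at 2 months, against 26 kb in the P14 wild type. The island with the largest gain and 1 of the pair with the largest loss, 26 kb, lay 282 kb apart on chromosome 13. These islands were picked for their difference from the P14 wild type, so the sizes are the extremes of 680 values.

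The comparison of 2-month with P14 wild-type mice addresses the maturation of hepatocytes after birth. Domains around islands were longer at 2 months in 335 islands (49.3%), equal in 88 (12.9%) and shorter in 257 (37.8%). Over all short constant open runs, 62.3% lay in a longer domain at 2 months and 32.4% in a shorter one. The mean difference, 2 months minus P14, was 1.53 kb (SD over islands 10.0 kb) with a median of 0 kb. A domain longer by at least 10 kb was found at 108 islands (15.9%, against 46.7% of all short runs), and one shorter by at least 10 kb at 68 (10.0%, against 20% of all short runs). Where the domain was longer at 2 months, it reached further at both edges in 119 islands and at only 1 edge, with the other fixed, in 154. In the other 62 it reached further at 1 edge and less far at the other. These counts by edge were taken for islands only.

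**Figure D3:**
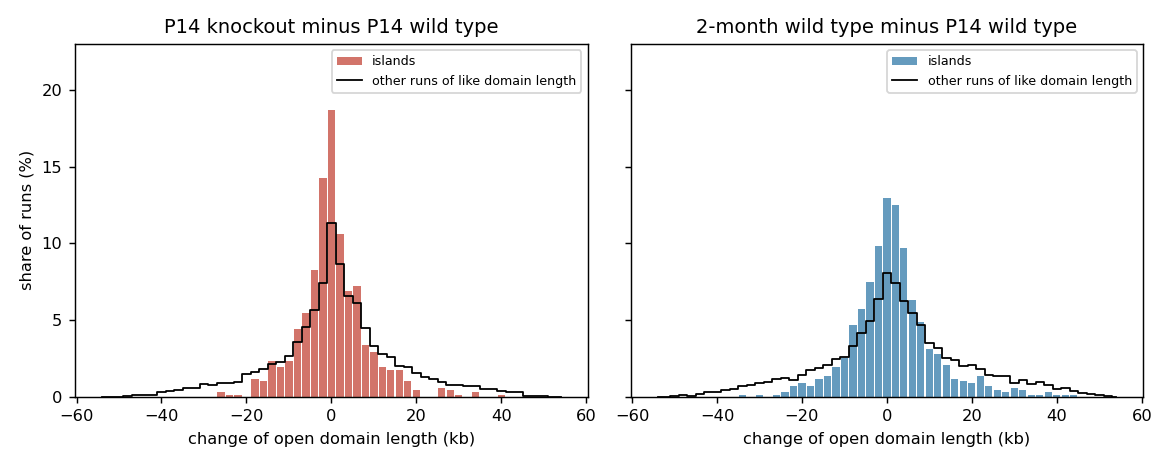
Change in length (kb) of the open domain around 680 islands (bars, in steps of 2 kb) and around 11429 other short constant open runs whose domain was at most 54 kb in every map (black line), as a share of runs in percent, for the P14 knockout (left, red) and 2-month wild type (right, blue), each minus the P14 wild type. No change is the most frequent value for islands in both comparisons, at 18.7% and 12.9%.

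The closed sides limit how long the domain around an island can be, so islands were also set beside 11429 other short runs whose domain was in every map no longer than 54 kb, the longest around any island. In that set, 48.4% lay in a longer domain in the P14 knockout than in the P14 wild type and 40.2% in a shorter one. At 2 months 52.1% lay in a longer domain and 39.8% in a shorter one. The mean difference was 0.975 kb in the knockout and 2.04 kb at 2 months, both minus the P14 wild type. Changes of at least 10 kb remained more frequent in this set than in islands, with 22.6% longer and 19.01% shorter in the knockout and 28.3% longer and 21.0% shorter at 2 months. The domains of this set were longer to begin with, with a mean of 17.1 kb in the P14 wild type against 11.8 kb around islands.

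Some of the widest domains at 2 months held more than 1 island. The islands at chr14:72242001-72248000 and chr14:72272001-72276000 lay in separate domains of 12 kb each in the knockout and in 1 domain of 48 kb at 2 months, against separate domains of 6 and 4 kb in the P14 wild type. At chr6:118052001-118060000 the domain was 48 kb at 2 months, against 8 kb in the P14 wild type. At chr7:149100001-149112000 it was 38 kb in the knockout and 50 kb at 2 months, against 12 kb in the P14 wild type. In all, 10 islands shared their domain with another island in the knockout, 32 did at 2 months and 8 did in the P14 wild type. The largest losses at 2 months were at chr15:92406001-92410000, with 4 kb at 2 months against 38 kb in the P14 wild type, and at chr9:49582001-49588000, with 8 kb against 38 kb. In both, the knockout domain was nearer to that of the P14 wild type in length, at 28 and 24 kb. Both comparisons use the same P14 wild-type map, and any error in it counts in each.

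The share of longer and shorter domains varied along the genome. At 2 months the islands with a longer domain outnumbered those with a shorter one on 12 of 19 autosomes, and the reverse held on 6. In the knockout they did so on 6 autosomes and the reverse held on 11. Over all short constant open runs, longer outnumbered shorter on all 19 autosomes in both comparisons. Over the other runs of like domain length they did so on 18 autosomes in the knockout and on 17 at 2 months. On chromosome 4, 25 of 36 islands had a longer domain at 2 months than in the P14 wild type and 2 had a shorter one, and in the knockout 22 were longer and 9 shorter. Of all short constant open runs on chromosome 4, 65.3% lay in a longer domain at 2 months and 29.6% in a shorter one, and in the knockout 52.2% in a longer and 39.9% in a shorter one. Of its other runs of like domain length, 55.1% were longer and 37.4% shorter at 2 months, and 50.5% longer and 39.7% shorter in the knockout. Without chromosome 4, 310 of 644 islands were longer at 2 months and 255 shorter, and 247 were longer and 275 shorter in the knockout. Chromosome 17, the autosome with the densest islands, had 16 islands that were longer and 21 that were shorter at 2 months, although 69.7% of its short constant open runs lay in longer domains.

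Most islands seen in a single map did not hold a constant island. The same limits on length and sides, applied to 1 map by itself, gave 5971 islands in the P14 knockout, 3950 in the 2-month wild type and 6073 in the P14 wild type. Of these, 600 in the knockout (10.0%), 570 at 2 months (14.4%) and 604 in the P14 wild type (9.95%) held 1 of the constant islands. An island of 1 map was counted as open in another when at least 50% of its bases were euch there. By this count, 22.7% of the knockout islands, 47.5% of the 2-month islands and 26.8% of the P14 wild-type islands were open in both other maps. Of all short open domains, 38% in the knockout map, 46.8% in the 2-month map and 41.3% in the P14 wild-type map were. Islands open in neither other map made up 32.5% in the knockout, 22.2% at 2 months and 49.3% in the P14 wild type. For all short open domains these shares were 22.6%, 23.5% and 32.7% in the same order. The 2-month map had the highest share open in both other maps among islands and among all short open domains alike, and there the islands' shares were near those of all short domains.

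Of the 6073 islands of the P14 wild type, 2585 (42.6%) were open in the P14 knockout, against 58.2% of all short open domains of that map. At 2 months 2125 (35.0%) were open, against 50.5% of all short open domains. Most of the rest were closed: 45.5% were mostly het in the knockout and 56.1% were mostly het at 2 months. This share was not taken for the other short open domains. The sides of the islands were chosen as closed, and whether the choice bears on it was not tested. In the knockout 12.6% of the bins 20 to 100 kb from these islands were open, and at 2 months 12.7% were. These are shares of bins and not of islands, and the sides were chosen as closed in the P14 wild type. They are therefore not a like measure to the islands' shares. In the reverse direction, 64.5% of the 2-month islands were open in the P14 wild type, against 59.8% of all short open domains of the 2-month map. Of the knockout islands, 57.3% were open in the P14 wild type, against 62.3% of all short open domains of the knockout map. At 2 months 32.9% of the knockout islands were open, against 53.2% of those domains.

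**Figure D4:**
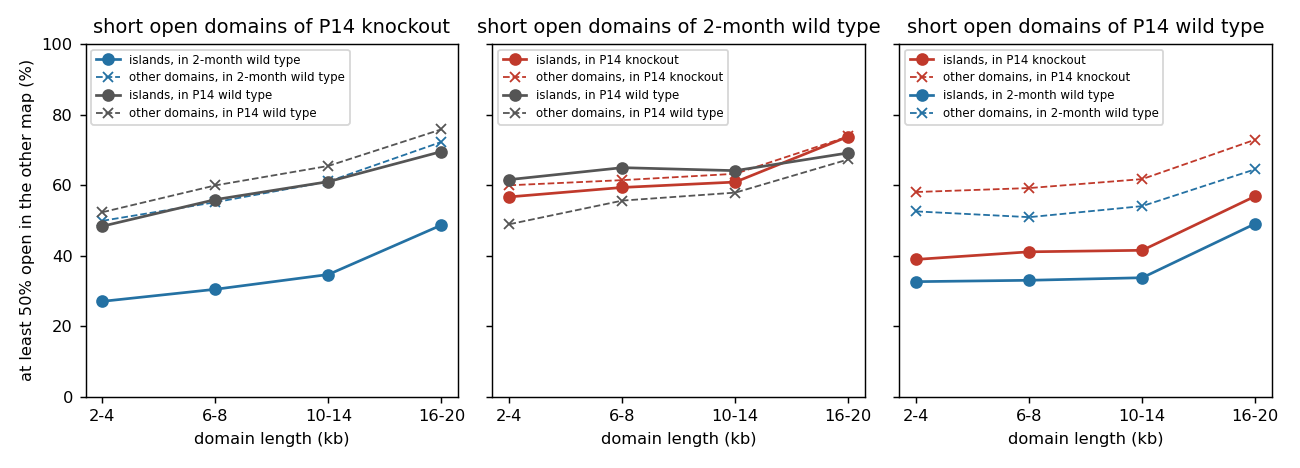
Share of short open domains of 1 map, in percent, that were at least 50% open in another map, by length of the domain in kb, for domains in closed surroundings (islands of that map, filled circles) and all other short open domains (crosses). Panels from left to right start from the P14 knockout, the 2-month wild type and the P14 wild type, and colours give the other map (red, knockout; blue, 2 months; grey, P14 wild type). The share is highest for lengths of 16 to 20 kb in every series.

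Longer islands were more often open elsewhere, as were longer open domains in other surroundings. Of P14 wild-type islands of 2 to 4 kb, 38.9% were open in the knockout and 32.6% at 2 months. For lengths of 16 to 20 kb these shares were 56.9% in the knockout and 49.1% at 2 months. In the other short open domains of that map the share open in the knockout was 58.04% at 2 to 4 kb and 72.9% at 16 to 20 kb, and at 2 months it was 52.5% and 64.5%. Between these lengths the islands' shares were 41.1% and 41.5% in the knockout and 33.0% and 33.8% at 2 months for 6 to 8 and 10 to 14 kb. Islands with more closed sides were less often open elsewhere in 5 of the 6 pairs of maps, when those with a lowest side of at least 90% het were set beside those with 60 to 70%. The gap was widest for knockout islands in the P14 wild-type map, of which 50.6% were open at 90% or more and 60.6% at 60 to 70%. For P14 wild-type islands the shares open in the knockout were 40.2% at 90% or more and 44.2% at 60 to 70%. The exception was P14 wild-type islands at 2 months, of which 37.0% and 35.8% were open. Among knockout and P14 wild-type islands, those at 90% or more were also shorter, with a median of 6 kb against 8 kb at 60 to 70%. Among 2-month islands both medians were 8 kb. Length and closed sides were not tested apart from each other.

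Islands were unevenly spread over the autosomes. There were 2.75 islands per 10 Mb overall. Chromosome 17 had the most for its length, 4.62 per 10 Mb (44 islands), followed by chromosome 7 with 3.87 (59 islands) and chromosome 9 with 3.79 (47 islands). The fewest per 10 Mb were on chromosome 18 with 1.65 (15 islands), chromosome 16 with 1.73 (17 islands) and chromosome 19 with 1.96 (12 islands). Closed sides need closed chromatin, and the share of a chromosome that was closed in all 3 maps ranged from 18.97% on chromosome 19 to 43.8% on chromosome 7. Per 10 Mb of such constant closed chromatin, chromosome 17 still had the most, with 13.0 islands, and chromosome 18 the fewest, with 5.53, while chromosome 19 had 10.3 against 8.74 over all autosomes.

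**Figure D5:**
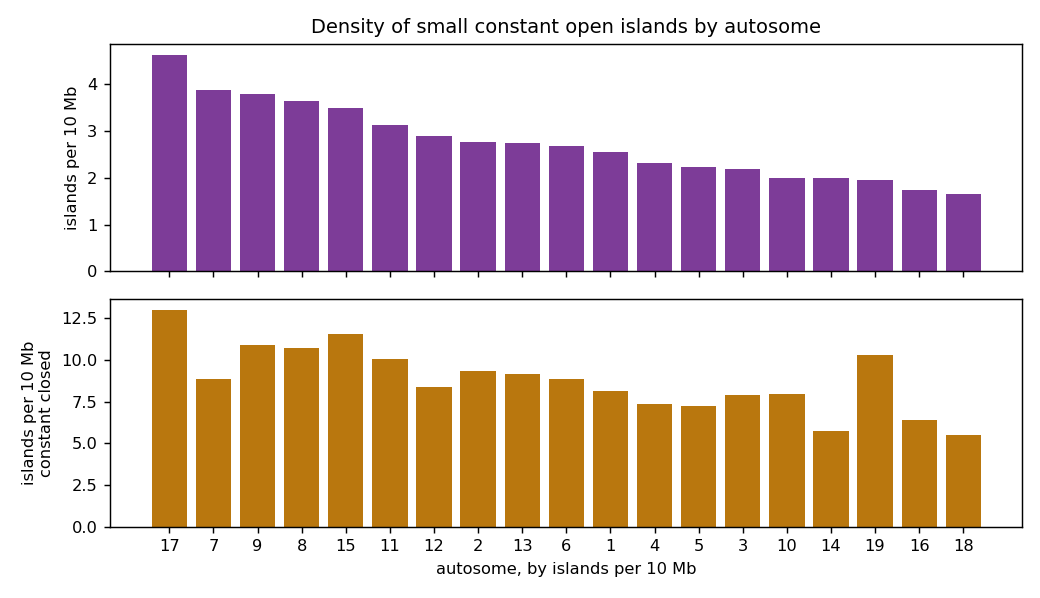
Islands per 10 Mb of each autosome (top) and per 10 Mb of chromatin closed in all 3 maps (bottom), with autosomes ordered by the upper value. Chromosome 17 is highest by both measures, at 4.62 and 13.0, and chromosome 18 is lowest by both, at 1.65 and 5.53.

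Many islands had another nearby. The distance to the nearest other island had a median of 510 kb and ran from 4 kb to 20704 kb. Another island lay within 100 kb of 173 islands (25.4%) and within 500 kb of 336 (49.4%), and 51 had none within 5 Mb. These distances were not set against any reference, so whether islands lie closer together than other runs was not tested. No stretch of 500 kb held more than 4 islands, and 7 separate stretches held that many. The tightest, chr10:84800001-84946000, held 4 islands in 146 kb. There the islands at chr10:84800001-84808000 and chr10:84812001-84820000 had domains of 8 kb each in the knockout, but shared 1 domain of 26 kb at 2 months and 1 of 22 kb in the P14 wild type. The third, at chr10:84832001-84836000, had a domain of 22 kb in the knockout and at 2 months, against 4 kb in the P14 wild type. On chromosome 2 the stretch chr2:10630001-11118000 held 4 islands in 488 kb, and het covered 81.1% of it in the knockout, 89.8% at 2 months and 84.8% in the P14 wild type. All 4 of its domains measured 8 kb or less in every map.

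The distance to large open domains is bound by the choice, since closed sides leave no room for one close by. The nearest open domain of at least 200 kb of the P14 wild-type map was at a median distance of 2842 kb from an island, and of 1840 kb from the other short runs. Such a domain lay within 200 kb of 17 islands (2.5%) and of 11.4% of the other short runs. The last 5 Mb of the autosomes, which make up 3.84% of their length, held 36 islands (5.29%). The mirror image of an island, a run of 2 to 20 kb that was closed in all 3 maps with at least 60% open chromatin on each side, occurred 744 times among 26084 short constant closed runs (2.85%), with a median length of 6 kb. Small constant islands thus occurred in both classes of chromatin, open within closed and closed within open.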

How the data were processed

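There were 9 deposited interval lists, which give the het, int and euch stretches for 3 groups of hepatocyte samples. Per the labels, the 5 samples of a group point to the same lists, but only 4 of those at 2 months name the euch list. That a list pools its group is inferred from this. Per the submitters' processing notes, the build was mm9, and STAR 2.4.2a, bedtools and bcl2fastq 2.19.0.316 were used. How domains were called, and with which thresholds, is not given in the sources used here. The deposited intervals hold a class letter and a score of 0 throughout, so no signal or depth could be used.

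Bins of 2 kb were filled from the lists. The software was NumPy 2.4.6, pandas 2.3.3, SciPy 1.17.1 and Matplotlib 3.10.9 under Python 3.11.15. Within each map no bases overlapped. Sides of 100 kb were scored separately, and bins past a chromosome end counted as not het. Coordinates are 1-based. The finding of islands was checked on simulated maps. Islands and comparisons were chosen with earlier results of these maps known. Islands were named by rank: the longest, the most enclosed, those with the largest change of domain length, those at the limit and the densest stretches. The longest islands with fixed edges, the runs of like domain length and the values by chromosome were chosen after the values were seen. The gene tables at hand are for GRCm38, so no gene or sequence was assigned, and the planned gene and marker lists were not used. Alternatives changed the side share, side width, run length, chromosomes and shared int runs.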

Additional observations from a re-analysis of the deposited data

Results flagged for a closer look

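Chromosome X was left out of the choice, but it too held islands. By the same limits 33 of its 2143 short constant open runs were islands (1.54%), a share below that of every autosome, and there were 1.98 per 10 Mb, which lies within the range of the autosomes. Their median length was 6 kb. The domain around them was longer in the P14 knockout than in the P14 wild type in 9 (27.3%) and shorter in 22 (66.7%), against 54.1% and 40.4% of all short constant open runs of chromosome X. At 2 months it was longer in 12 (36.4%) and shorter in 14 (42.4%), against 42.7% and 51.0% of those runs. The groups differ in their mix of sexes, and the part of this in the values on X was not tested.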

How the results depend on the processing

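No paired analysis was possible because each map pools its group, and no sample could be left out for the same reason. A share was taken as moved when it left the exact binomial 95% interval of the reported value, a count when it differed by over 1.5 times. By this measure 47 of 65 values did not move. The interval treats regions as independent, though some share a domain and the compared sets overlap. It served as a yardstick and not as a test, and says nothing of the spread between animals. The number of islands was 1339 with at least 50% het on each side, 319 with 70% and 1496 with both sides joined, against 680. With 50% het, 44.1% of P14 wild-type islands were open in the P14 knockout. With 70% het, domains were shorter around 33.5% of islands at 2 months and 37.9% in the knockout. With sides of 50 kb, 36.9% of P14 wild-type islands were open at 2 months and 45.2% in the knockout, and domains were shorter in the knockout around 37.6% of islands. With sides of 200 kb, 32.4% were open at 2 months and 39.3% in the knockout, and domains were longer in the knockout around 43.7% of islands, more than the 40.2% that were shorter. With sides joined, 37.7% were open at 2 months and 46.1% in the knockout, and 42.8% of islands had a longer domain in the knockout against 39.1% with a shorter one. With runs up to 10 kb, 32.3% were open at 2 months and 39.7% in the knockout. Asking for 80% of bases, added after the data had been seen, gave 26.5% at 2 months and 28.9% in the knockout. Which of longer and shorter domains was more frequent in the knockout therefore depended on the width and joining of the sides, and with 70% het or sides of 50 kb too longer domains were more frequent (40.4% and 41.0%). At 2 months longer domains were more frequent under each alternative run. The cause of these shifts was not tested. Depth is unknown, so its limits could not be judged.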
